A study of Mus musculus with 33 samples.

Results

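Mini-colon AKP line #iv was compared with organoid AKP cells, and the comparison rests on 6 of the 33 libraries of the series. The 3 libraries titled Mini-colon AKP #iv were set against organoid AKP replicates 4 to 6, because all 6 carry the letter F in their library code, whereas organoid AKP replicates 1 to 3 carry the letter E. The meaning of the letters was not given in the sources used here. All 6 libraries were made from mouse colon organoid lines of the genotype the labels call AKP, with floxed Trp53 (fl/fl) and floxed Apc (fl/fl) among its alleles, which also carried a lentiviral, doxycycline-dependent and blue-light-dependent Cre (OptoCre) and a fluorescent recombination reporter. Line #iv was established from cancer cells of OptoCre-activated mini-colons enriched in crypt tumours and is described in the study as fast-growing. Organoid AKP cells were recombined by light in conventional organoid culture and passaged in parallel. The other groups used below are non-induced control organoids that carried the unrecombined alleles (replicates 4 to 6), the further mini-colon lines #i (lumen-enriched), #ii, #iii and #v (crypt-enriched), and in vivo AKP organoids (replicates 4 to 6) grown out of tumours in AKP mice whose Cdx2-creERT2 was activated with tamoxifen. Each mini-colon line is a single line. The study describes its sets of bulk RNA-seq samples as independent, but no label ties the 3 libraries of a line to separately generated lines or animals, so p-values below measure the spread between samples of 1 line. Before RNA extraction the organoids were grown for 3 days and then starved of growth factors for 24 h.

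APC holds WNT signalling down by marking β-catenin for destruction, and p53 restrains the growth of damaged cells. A mini-colon is a tube of colon epithelium grown in a microfluidic scaffold with crypt-like and lumen-like domains, in which stem cells sit at the crypt base and differentiated colonocytes line the lumen. Lines grown from separate tumours can differ in which genes they keep silent, in the number of their chromosomes and in the cell states they retain.

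The libraries were QuantSeq 3′ mRNA-seq counts, which tag the end of each transcript. Line #iv held 3222698 to 3826247 counts per library and organoid AKP replicates 4 to 6 held 5613299 to 7232715. Levels are given below as CPM, the counts scaled to a common library size by TMM. The epithelial markers summed to 3597 to 3704 CPM in #iv and 3655 to 3914 in organoid AKP, and Epcam, Cdh1 and Krt8 were not called different. Of the 10 epithelial markers, Cldn7 was called higher and 0 were lower by edgeR, while DESeq2 called 1 higher and 1 lower. Of 14 fibroblast and muscle markers only Fn1 and Vim passed the expression filter, with a summed level of 24.2 to 33.2 CPM in #iv and 10.7 to 24.8 in organoid AKP. Of 14 immune markers only S100a8, S100a9 and Cd68 passed, with a sum below 11.4 CPM in every library of either group. Summed endothelial markers lay at 10.4 to 13.3 CPM in #iv and 8.46 to 14.8 in organoid AKP, and nerve and glial markers at 4.70 to 6.18 and 6.94 to 8.29. Mitochondrially encoded genes took 2.45 to 3.12% of the counts in #iv and 2.90 to 3.39% in organoid AKP.

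Neither Trp53 nor Apc was called different. Trp53 stood at 1.97, 2.79 and 2.09 CPM in #iv and at 1.07, 1.40 and 1.73 in organoid AKP (log2 fold change 0.68, SE 0.41, adjusted p = 0.354, edgeR quasi-likelihood test with Benjamini-Hochberg adjustment, as for all adjusted p-values below), against a mean of 17.6 CPM in control organoids. Apc was not called either (95.8 and 104 CPM, adjusted p = 0.514), and a count at the 3′ end does not show whether their alleles had recombined.

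Of 13606 genes tested across all libraries, 758 (5.57%) were higher and 733 (5.39%) were lower in #iv at an adjusted p below 0.05. Differences of at least 1 log2 unit were found for 233 of the higher and 235 of the lower genes. The 3 libraries of each group did not overlap at 740 of the higher and 720 of the lower genes, while 30% of all tested genes showed no overlap. The median log2 fold change over all genes was -0.00277. In the plot of fold change against level, large differences included genes of low level, such as Macroh2a2. They also included Rhox5, which stood at 1210, 1210 and 1330 CPM in organoid AKP. The plot marks the 173 higher genes of chromosome 3, which are positive by that selection, and does not mark its other genes.

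**Figure D1:**
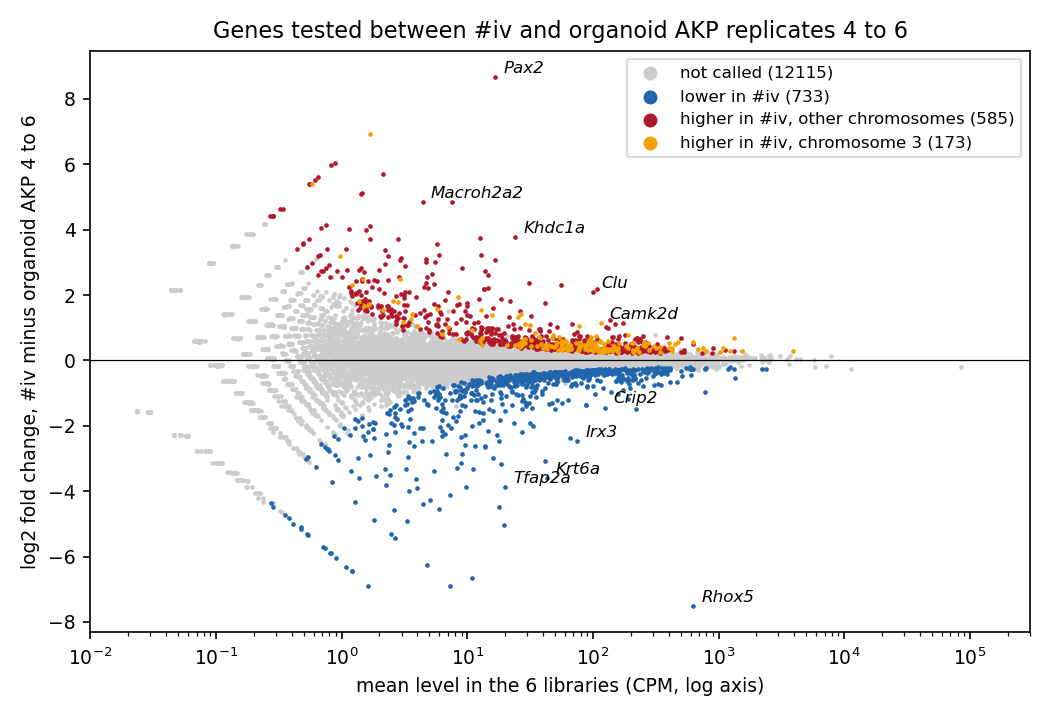
Fold change of each tested gene (vertical axis, log2, #iv minus organoid AKP replicates 4 to 6) against its mean level in the 6 libraries (horizontal axis, CPM, log scale). Blue points are the 733 lower genes, red and orange points the 758 higher ones, of which the 173 in orange lie on chromosome 3, and grey points were not called.

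A rise that ran along the whole of chromosome 3 was the broadest feature of #iv. This grouping was chosen after the values had been seen. Among genes that averaged 10 CPM or more over the 6 libraries, 151 of the 414 genes on chromosome 3 were higher in #iv and 3 were lower, whereas on the other autosomes 381 of 7866 (4.84%) were higher and 529 (6.73%) were lower. The median log2 fold change on chromosome 3 was 0.277, or 1.21-fold, and 90.1% of its genes had a positive value. The medians of the other autosomes lay between -0.0505 and 0.121. When the chromosome 3 genes were divided in order along the chromosome into 10 blocks of 41 or 42 genes, the block medians ranged from 0.210 to 0.380 and each block held 8 to 20 higher genes. The rise was thus spread from end to end rather than gathered in a segment.

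**Figure D2:**
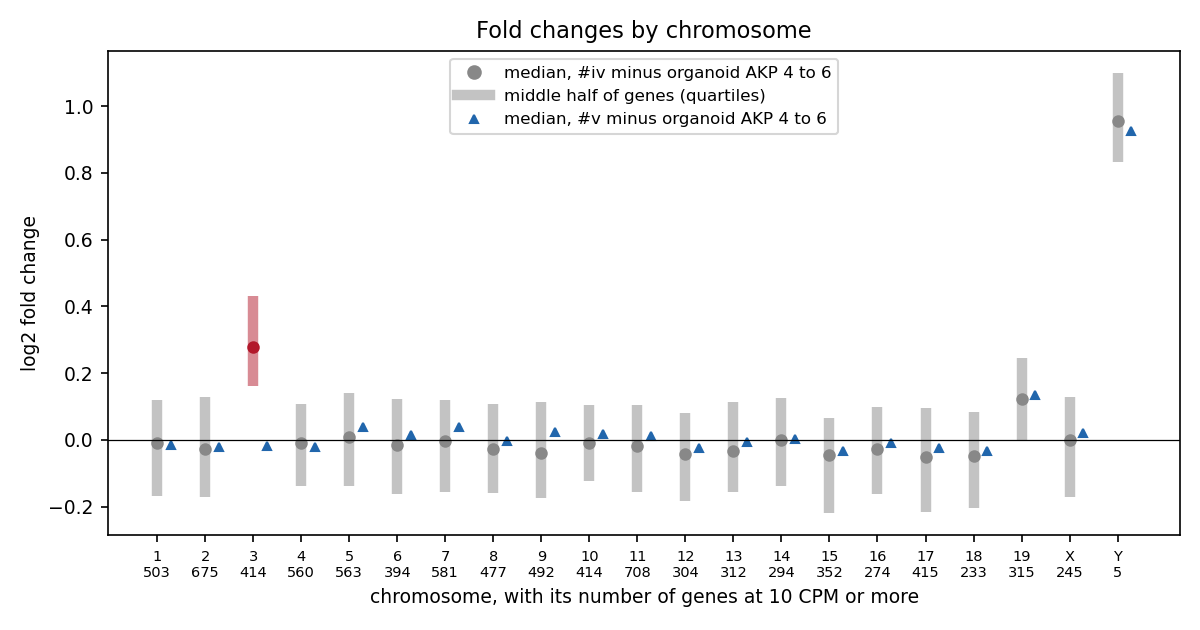
Median log2 fold change by chromosome for #iv minus organoid AKP replicates 4 to 6 (circles, with bars from the lower to the upper quartile of genes) and for #v minus the same organoid libraries (triangles). Numbers under the axis count the genes at 10 CPM or more. Chromosome 3 (red) has its whole quartile bar above 0 in #iv, while the triangle of #v lies at -0.0197.

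The same genes were followed in every library of the series. Relative to the mean of organoid AKP replicates 4 to 6, the median log2 ratio of the chromosome 3 genes, on log2(CPM + 1), was 0.293, 0.298 and 0.260 in the 3 libraries of #iv. In the 18 other AKP libraries of organoid and mini-colon origin it lay between -0.069 and 0.038. The other autosomal genes in #iv lay at -0.014, -0.013 and -0.017. No other AKP library therefore reached the level of #iv, and the 3 libraries of #iv lay close together. Against other references the chromosome 3 median in #iv was 0.263 with organoid AKP replicates 1 to 3, 0.336 with #v and 0.339 with in vivo AKP. These references share the #iv libraries. RNA counts do not measure DNA copies, and whether the number of chromosomes 3 differed was not tested.

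**Figure D3:**
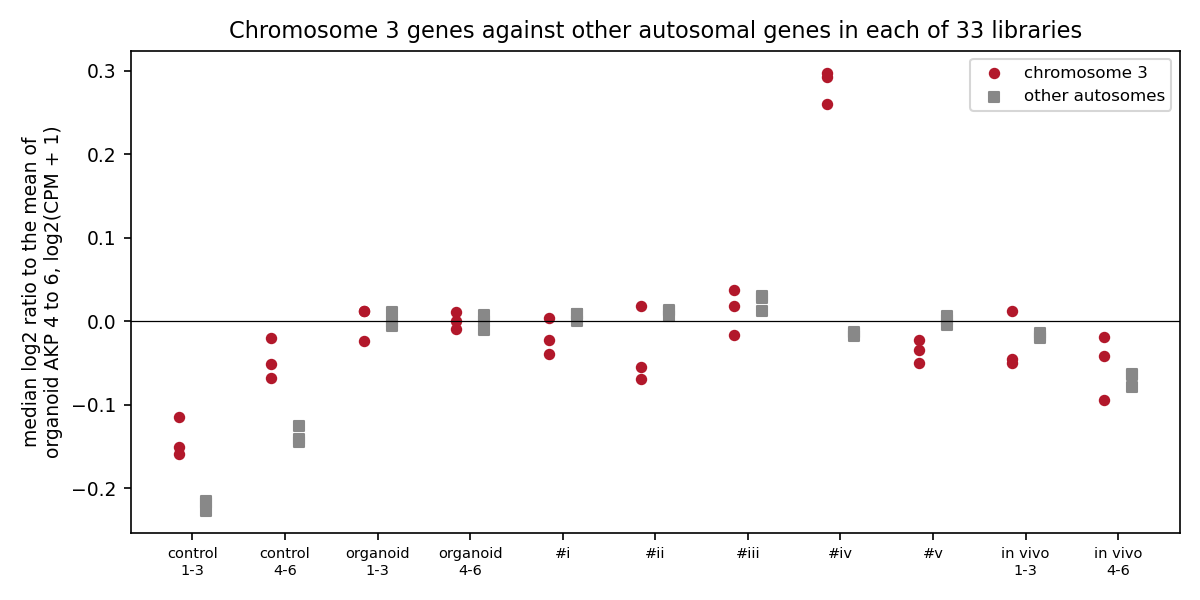
Median log2 ratio of genes on chromosome 3 (red circles) and on the other autosomes (grey squares) to the mean of organoid AKP replicates 4 to 6, for each of the 33 libraries by group. The 3 red points of #iv lie at 0.260 to 0.298, above the red points of all other groups.

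Chromosome 3 held 702 of the genes tested (5.16%) and 173 of the 758 higher genes (22.8%), against 11 of the 733 lower genes (1.5%). Of its higher genes at 10 CPM or more, the median log2 fold change was 0.454. Camk2d, a subunit of a calcium-dependent kinase, stood at 165, 163 and 153 CPM in #iv and at 68.0, 83.2 and 67.0 in organoid AKP (log2 fold change 1.14, SE 0.10, adjusted p = 1.14e-13). Pla2g12a, a secreted phospholipase, stood at 103, 103 and 109 CPM against 49.7, 51.9 and 50.7 (1.05, SE 0.10, adjusted p = 6.79e-12). In both genes the groups did not overlap. The exon junction factor Rbm8a (749 and 505 CPM) and the translocon-associated Serp1 (479 and 330 CPM) rose by 0.57 and 0.54 on the log2 scale. Of the 233 genes that were higher by at least 1 log2 unit, 28 were on chromosome 3.

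Chromosome 19 and the Y chromosome stood apart from the remaining chromosomes as well, but not in #iv alone. On chromosome 19, 35 of 315 genes were higher and 9 lower, with a median of 0.121, and #v against the same organoid libraries gave 0.134. Against organoid AKP replicates 1 to 3 the median in #iv was 0.0259, and the organoid replicates 4 to 6 themselves lay at -0.0657 relative to replicates 1 to 3. All 5 Y-linked genes at 10 CPM or more were higher, and of the 6 sex-linked genes tested from a list Ddx3y, Eif2s3y, Uty and Kdm5d were higher and none was lower. Ddx3y, an RNA helicase gene, stood at 93.3, 87.2 and 97.2 CPM in #iv and at 34.9, 49.7 and 44.5 in organoid AKP replicates 4 to 6 (log2 fold change 1.10, SE 0.11, adjusted p = 1.93e-11). Organoid AKP replicates 1 to 3 had a mean of 93.3 CPM, close to #iv (adjusted p = 0.963 against them), so Ddx3y was low in organoid AKP replicates 4 to 6 against both.

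The gene with the largest rise was Pax2 (chr19:44735057-44826703, GRCm39), a paired-box transcription factor of kidney and neural development. It held 36.8, 36.9 and 25.6 CPM in #iv and 0, 0 and 0.173 in organoid AKP. A single count in the 3 organoid libraries faced 348 in #iv, a ratio of 609 with an exact 95% counting interval of 109 to 24100 (adjusted p = 1.26e-20). Pax2 was at 0 in organoid AKP replicates 1 to 3 and in the control organoids, and stood at a mean of 10.1 CPM in #v, 7.92 in in vivo AKP and 1.95 in #iii. In #iv it was higher than in #v by 1.67 on the log2 scale (SE 0.22, adjusted p = 8.18e-08). Lines #i and #ii held 1.15 and 0.342 CPM, so the level in #iv was the highest of the groups examined.

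Other genes that were close to silent in organoid AKP followed. Macroh2a2, which encodes a histone variant of repressed chromatin, stood at 7.87, 11.5 and 6.27 CPM against 0.356, 0.420 and 0 (log2 fold change 4.84, SE 0.50, adjusted p = 3.14e-11). Snrpn (chr7:59630427-59820763), an imprinted gene of the Prader-Willi region that encodes a splicing protein, stood at 24.7, 24.5 and 21.7 CPM against 1.78, 1.12 and 2.42 (3.75, SE 0.25, adjusted p = 1.31e-18). Its neighbour Snhg14, the long noncoding RNA of the same region, stood at 12.1, 10.6 and 9.15 CPM against 1.07, 0.839 and 0.690 (3.57, SE 0.32, adjusted p = 1.42e-13). The groups did not overlap at any of these genes. The pair lies side by side on 1 strand, and reads past the end of one gene cannot be told apart from the other at 3′ ends.

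Tceal8 (14.5 and 0.487 CPM), a transcription elongation factor-like gene of the X chromosome, and Khdc1a (44.8 and 3.18 CPM), a member of a multigene family whose near-identical copies may share reads, rose by 4.83 and 3.78. Pde3b, a cAMP phosphodiesterase, rose by 3.71 (5.26 and 0.388 CPM). Car6, a secreted carbonic anhydrase, stood at 23 CPM in #iv and at 2.48 in organoid AKP, and at 1.58 in #v, 8.41 in #iii, 29.97 in #ii and 3.97 in #i. The drug efflux pump gene Abcb1a (10.7 and 1.11 CPM) and the transcription factor Sp9 (5.41 and 0.573 CPM) completed the 10 largest rises, and none of the 10 is on chromosome 3. Control replicates 4 to 6 held far more Abcb1a (597, 590 and 584 CPM) than #iv. The rest of the 10 were lower in those controls than in any library of #iv. All 10 were also higher in #iv than in organoid AKP replicates 1 to 3, with adjusted p-values from 1.22e-17 for Pax2 to 0.0457 for Abcb1a.

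The gene with the largest fall was Rhox5 (chrX:36891636-36897311, GRCm39), a homeobox gene of the reproductive tract that is silenced by DNA methylation in most somatic cells. It held 2.25, 11.8 and 6.79 CPM in #iv and 1210, 1210 and 1330 in organoid AKP (log2 fold change -7.51, SE 0.35, adjusted p = 1.11e-13). Organoid AKP replicates 1 to 3 had a mean of 415 CPM. The level in #iv was near that of the control organoids (6.36), #v (5.93) and in vivo AKP (2.57), and lines #i, #ii and #iii held 29.8, 12.7 and 30.8, so Rhox5 was highest in the organoid AKP libraries.

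The other large falls divided by what organoid AKP replicates 1 to 3 showed. The cytoskeletal adaptor Gas7 (1.12 and 37.8 CPM), the cell surface protein gene Flrt2 (1.59 and 34.4 CPM), Cnfn of the cornified envelope (0.449 and 11.5 CPM) and the lens crystallin gene Cryba4 (0.103 and 14.5 CPM) were also abundant in replicates 1 to 3, at means of 23.8, 34.2, 31.3 and 7.29 CPM, and were lower in #iv against either set. Dapl1 and Aqp3 were not: their means of 21.7 and 5.25 CPM in replicates 4 to 6 faced 0.108 and 0.317 in replicates 1 to 3, and #iv was not called different from the latter (adjusted p = 0.801 and 0.469). Twist1, a mesenchymal transcription factor, showed like values, at 0.488 CPM in #iv, 9.60 in replicates 4 to 6 and 0.647 in replicates 1 to 3. The falls of these 3 genes therefore depended on which organoid AKP libraries served as reference. The ratios of the genes that had only 1 or 2 counts in #iv were imprecise, such as 154 for Cryba4 with a counting interval of 27.4 to 6090, 98.9 for Lypd3 (17.5 to 3930), 112 for Dapl1 (30.8 to 928), 54.9 for Aqp3 (9.61 to 2190) and 27.1 for the mannosidase gene Man1c1 (7.31 to 227).

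**Figure D4:**
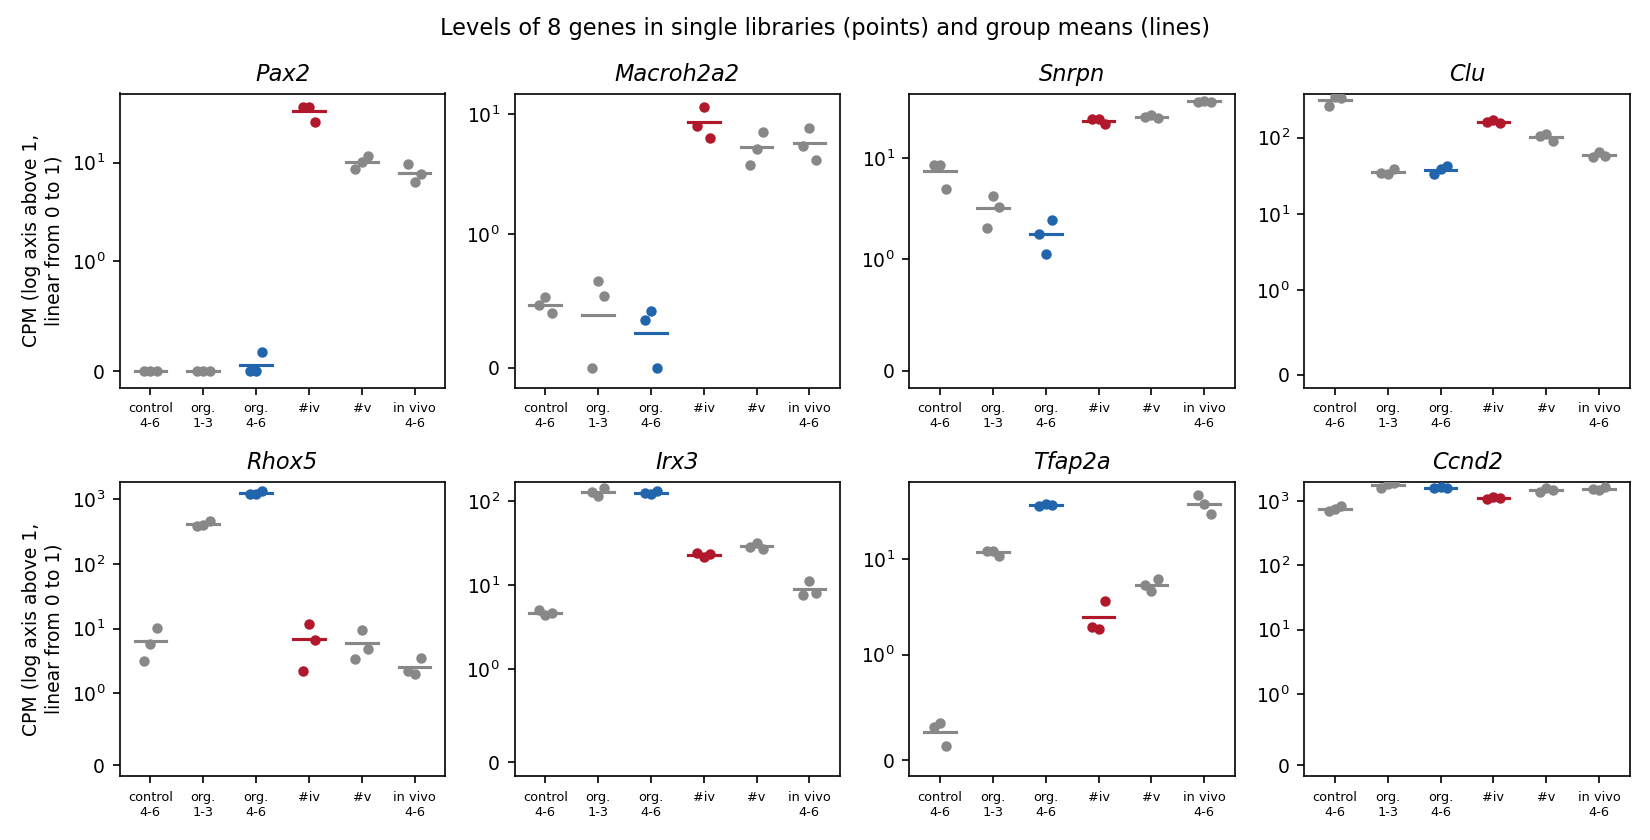
Levels of 8 genes (CPM, log scale above 1 and linear below) in single libraries (points) with group means (lines), for control, organoid AKP replicates 1 to 3 and 4 to 6, #iv, #v and in vivo AKP. Pax2, Macroh2a2, Snrpn and Clu are higher in #iv (red) than in organoid AKP replicates 4 to 6 (blue), and Rhox5, Irx3, Tfap2a and Ccnd2 are lower.

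Several genes of squamous and epidermal epithelium were among the falls. A list of 63 such genes was written after this had been noticed, so its count carries no independent weight: of 45 tested, 29 were lower and 1, Cdh3, was higher, with a median log2 fold change of -1.51. Tfap2a, a transcription factor of surface ectoderm, stood at 1.97, 1.86 and 3.66 CPM in #iv and at 36.8, 38.1 and 37.3 in organoid AKP (log2 fold change -3.87, SE 0.25, adjusted p = 1.31e-18). The keratin gene Krt6a stood at 4.50, 6.52 and 8.62 CPM against 67.3, 70.4 and 103 (-3.60, SE 0.24, adjusted p = 1.02e-13), and the homeobox gene Dlx3 at 3.65, 3.72 and 3.66 against 33.3, 37.1 and 29.9 (-3.18, SE 0.26). No library of #iv reached the organoid range at these genes, and Krt6a reads may be shared with close keratin copies.

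The remaining falls in this group were of mixed size. Trim29 (5.41 and 30.2 CPM), the desmosomal cadherin Dsg3 (5.18 and 19.4 CPM), the kallikrein gene Klk10 (32.9 and 81.2 CPM) and the basal keratin Krt14 (120 and 224 CPM) fell, whereas Sfn, Ly6d, Serpinb5 and Pkp1 were not called. Against organoid AKP replicates 1 to 3, 17 members were lower and 6 higher in #iv, and against #v 4 were lower and 5 higher. Krt14 was at 129 CPM in replicates 1 to 3 and was not called there (adjusted p = 0.553).

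Further gene groups were taken from 36 lists, and their counts are to be read against the 5.57% of all genes that rose and the 5.39% that fell. In the plot of the lists, the sex-linked, cholesterol synthesis and G-protein-coupled receptor lists were among those with rises alone, and the cell cycle, TGFβ and BMP, and Notch lists among those in which most or all called members fell. In bulk RNA, fewer cells of a type and less RNA per cell cannot be told apart.

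**Figure D5:**
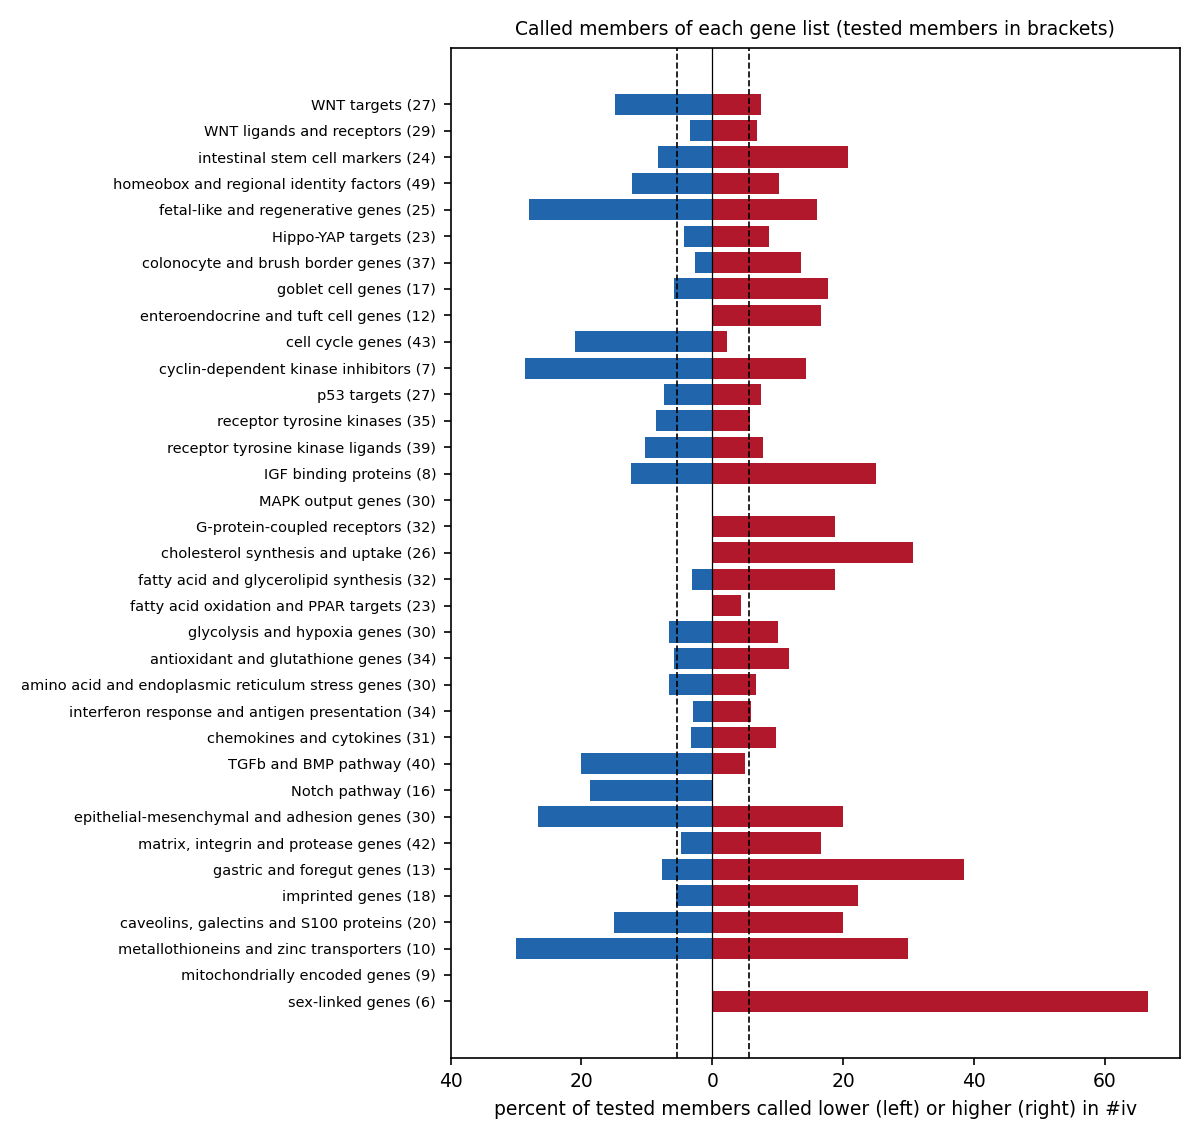
Percent of the tested members of each gene list that were higher (red, right) or lower (blue, left) in #iv than in organoid AKP replicates 4 to 6, with the number tested in brackets. Dashed lines mark the shares over all genes, 5.57% higher and 5.39% lower.

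Genes of positional identity moved in both directions. Of 49 homeobox and regional factors tested, 5 were higher and 6 lower, with a median of 0.152. Irx3, an Iroquois homeobox factor, had the smallest adjusted p of all genes. It stood at 24.5, 21.7 and 23.3 CPM in #iv and at 127, 121 and 134 in organoid AKP, without overlap (log2 fold change -2.46, SE 0.12, adjusted p = 9.53e-24). Its cluster neighbour Irx5 stood at 12.1, 7.45 and 10.7 CPM against 24.9, 27.8 and 35.7 (-1.53, SE 0.19, adjusted p = 3.66e-09), and Irx2 had no count in #iv. Both Irx3 and Irx5 were lower against organoid AKP replicates 1 to 3 as well. Gata6, an endodermal transcription factor that maintains crypt stem cells, doubled from 34.3 to 69.6 CPM (1.02, SE 0.12, adjusted p = 4.01e-09). Hoxa10 was higher by 0.48, and Cdx2, the factor of intestinal identity, was not called (95.7 and 87.9 CPM).

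WNT targets, which APC loss switches on, showed few called differences: 2 of 27 were higher and 4 lower, with a median of -0.19. The matrix metalloproteinase gene Mmp7 stood at 14.3, 14.3 and 17 CPM in #iv and 3.56, 6.02 and 4.49 in organoid AKP (log2 fold change 1.67, SE 0.21, adjusted p = 7.70e-09), but at a mean of 14.6 in organoid AKP replicates 1 to 3. The WNT inhibitor Apcdd1 (9.85 and 36.9 CPM), the pseudoreceptor Bambi (22.2 and 43.2 CPM) and the stem cell factor Ascl2 (34.1 and 47.0 CPM) fell. Among 29 WNT ligands and receptors, Ror2 (15 and 5.84 CPM) and the WNT secretion factor Wls (191 and 132 CPM, on chromosome 3) were higher. The R-spondin receptor gene Lgr6 was lower, at 21.9, 19.6 and 21.7 CPM against 103, 120 and 105 (-2.37, SE 0.17, adjusted p = 1.91e-15), but replicates 1 to 3 had a mean of 27.5 CPM.

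Of 24 intestinal stem cell markers, 5 were higher and 2 lower, with a median of 0.144. Prom1 (286 and 182 CPM) and Cd24a (97.7 and 57.7 CPM), both surface proteins of stem and progenitor cells, rose by 0.65 and 0.76. Lgr5, the marker of crypt base columnar cells, stood at 87.1, 85.3 and 81.0 CPM against 65.1, 69.5 and 65.2 and was not called (adjusted p = 0.0779), though it was without the filter on low counts (adjusted p = 0.03). The vitamin D receptor gene Vdr fell to 0.562 from 4.14 CPM. In organoid AKP replicates 1 to 3 it stood at 0.681, 1.95 and 0.809 CPM, overlapping #iv (0.281, 0.621 and 0.784). Sox9 (916 and 876 CPM) and Cd44 (739 and 838 CPM) were not called.

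Clu, a secreted chaperone that marks regenerating intestinal cells, rose the most among the fetal-like and regenerative genes. It stood at 163, 170 and 154 CPM in #iv and at 32.9, 38.8 and 42.8 in organoid AKP (log2 fold change 2.09, SE 0.13, adjusted p = 2.78e-15), with 103 CPM in #v and 309 in control organoids. Of the 25 genes of this list, 4 were higher and 7 lower. Crip2 fell to 67.6 from 184 CPM and the membrane protein gene Emp1 to 530 from 1040. The list did not move in 1 direction, with a median of -0.03.

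Differentiation genes showed single differences. Of 37 colonocyte and brush border genes, 5 were higher and 1 lower, among them the adhesion molecules Ceacam1 (311 and 186 CPM) and Cdh17 (147 and 113 CPM) and the placenta-associated Plac8 (203 and 94.7 CPM). The colonocyte genes Krt20, Fabp2 and Clca4a had means of 2.37, 0.291 and 0.174 CPM in #iv and were not called. Of 17 goblet cell genes, Galnt12 (31.1 and 15.8 CPM), Muc1 (2.47 and 0.780 CPM, on chromosome 3) and Spink4 (13 counts in #iv and 2 in organoid AKP) were higher. Fcgbp was lower, and Muc2 stayed below 0.8 CPM in every library of #iv and of organoid AKP replicates 4 to 6. Of 12 enteroendocrine and tuft cell genes tested, Avil and Cpe were higher. Avil, an actin regulator of tuft cells, stood at 172, 173 and 183 CPM against 41.5, 35.7 and 38.3 (2.19, SE 0.17, adjusted p = 2.73e-10) with means of 44.8 in #v, 144 in #i and 214 in #ii. Of 13 gastric and foregut genes, 5 were higher and 1 lower, with Krt23 (58.4 and 31.5 CPM) and Krt7 (1240 and 992 CPM) above and the water channel gene Aqp5 (7.98 and 28.2 CPM) below.

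Nearly all cell cycle genes that were called were lower in #iv after growth factor withdrawal. Of 43 tested, 1 was higher and 9 lower, with a median of -0.088. Ccnd2, a D-type cyclin, stood at 1070, 1170 and 1110 CPM in #iv and at 1580, 1680 and 1580 in organoid AKP (log2 fold change -0.53, SE 0.08, adjusted p = 3.29e-07). The spindle genes Tpx2 (291 and 375 CPM), Kif20a (76.4 and 106 CPM) and Cenpf (515 and 697 CPM) fell. Mki67 (299 and 397 CPM, adjusted p = 0.0427) fell too, with overlapping libraries at 266, 277 and 354 against 367, 484 and 340, and its call was lost without organoid AKP replicate 5 (adjusted p = 0.292). The ribonucleotide reductase subunit gene Rrm1 was higher (305 and 211 CPM), but it was at 325 CPM in organoid AKP replicates 1 to 3. In those replicates Tpx2 stood at 320, 347 and 286 CPM, overlapping #iv (288, 305 and 281). Ccnd2 (1620, 1870 and 1880 CPM) and Mki67 (420, 475 and 433 CPM) were higher there than in any library of #iv.

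Of 7 cyclin-dependent kinase inhibitors tested, the INK4 genes Cdkn2a and Cdkn2b were lower and remained expressed. The other INK4 genes, Cdkn2c and Cdkn2d, were not called. Cdkn2a, which encodes p16 and p19Arf, stood at 136, 134 and 127 CPM in #iv and at 203, 206 and 188 in organoid AKP (log2 fold change -0.59, SE 0.09, adjusted p = 6.34e-07), with no overlap. Cdkn2b stood at 10.1, 7.45 and 6.53 CPM against 17.1, 16.5 and 15.7 (-1.03, SE 0.20, adjusted p = 1.28e-04). In #iii, against its own organoid libraries, the corresponding changes were -3.75 and -3.53, and both differed from those in #iv (adjusted p = 2.34e-25 and 6.18e-06). Cdkn1c, an imprinted inhibitor, was higher (29.8 and 20.4 CPM). Of 27 p53 targets, Pmaip1 and Btg2 were higher and Phlda3 and Perp lower, a count near the shares over all genes.

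Several genes of the BMP and Notch pathways were lower. Of 40 TGFβ and BMP genes, 2 were higher and 8 lower. The ligand gene Bmp2 stood at 15.2, 10.2 and 12.5 CPM in #iv and at 38.3, 28 and 31.8 in organoid AKP (log2 fold change -1.35, SE 0.18, adjusted p = 2.19e-08). The BMP targets Id1 (86.8 and 155 CPM), Id2 (260 and 433 CPM), Id3 (26.1 and 73.2 CPM) and Id4 (1.31 and 7.37 CPM) were lower, as was the inhibitor Smad7, while the ligand gene Tgfb3 (10.3 and 2.87 CPM) was higher. Against organoid AKP replicates 1 to 3, with means of 10.8 CPM for Bmp2 and 227 for Id2, neither gene was called (adjusted p = 0.467 and 0.151). Of 16 Notch pathway genes, none was higher by edgeR, limma-voom or DESeq2 (1 at an unadjusted p below 0.05), and the receptors Notch1 (2.84 and 11.3 CPM) and Notch3 (3.12 and 9.24 CPM) and the target Hes1 were lower. Hes1, a repressor of secretory fate, stood at 205, 182 and 165 CPM against 330, 312 and 317 (-0.80, SE 0.12, adjusted p = 1.46e-05). Notch1 and Hes1 were lower against replicates 1 to 3 also, and Notch3 was not.

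Some sterol and lipid synthesis genes rose, each by less than 1 log2 unit. Of 26 cholesterol genes, 8 were higher and none lower by edgeR, limma-voom and DESeq2 (11 higher and 0 lower at an unadjusted p below 0.05), with a median of 0.222, and 0.200 over the 24 that are not on chromosome 3. Pmvk, which phosphorylates mevalonate phosphate, stood at 64.9, 62.7 and 54.1 CPM in #iv and at 39.5, 33 and 34.3 in organoid AKP (log2 fold change 0.77, SE 0.12, adjusted p = 3.19e-06), and Fdps, farnesyl diphosphate synthase, at 213, 200 and 216 against 158, 150 and 154 (0.45, SE 0.08). Both lie on chromosome 3. Mvd, Hsd17b7, Fdft1, Lss and Stard4 lie elsewhere and were higher by 0.32 to 0.58. Of 32 fatty acid and glycerolipid genes, 6 were higher and 1 lower, led by malic enzyme Me1 (97.4 and 52.8 CPM) and the elongase Elovl6 (72.5 and 47.0 CPM, on chromosome 3).

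Glycolysis and redox genes showed single differences rather than shifts of a list. Of 30 glycolysis and hypoxia genes, 3 were higher and 2 lower. Car9, a hypoxia-induced carbonic anhydrase, stood at 182, 168 and 165 CPM against 85.8, 90.2 and 77.2 (log2 fold change 1.02, SE 0.18, adjusted p = 3.96e-04), and the lactate exporter gene Slc16a3 at 241, 243 and 231 against 114, 118 and 90.8 (1.15, SE 0.22). Vegfa fell (338 and 428 CPM), although it was at 151 CPM in organoid AKP replicates 1 to 3. Of 34 antioxidant and glutathione genes, 4 were higher and 2 lower. The higher ones included Mgst2 on chromosome 3 (39.2 and 18 CPM) and Gpx2 (337 and 268 CPM). In organoid AKP replicates 1 to 3 Gpx2 stood at 263, 332 and 326 CPM, overlapping #iv (336, 326 and 350). Mgst2 stood there at 34.4, 27.6 and 26.2 CPM, also overlapping #iv (38.5, 45 and 34.2). The zinc importer gene Slc39a4 stood at 93.6, 97.1 and 88.3 CPM against 17.3, 18.6 and 20.9 (2.29, SE 0.16, adjusted p = 1.60e-13), and the metal-binding Mt2 rose to 227 from 132 CPM, so that 3 of 10 metallothionein and zinc transporter genes were higher and 3 lower.

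Adhesion and matrix genes changed individually. Of 30 epithelial-mesenchymal and adhesion genes, 6 were higher and 8 lower, and of 42 matrix, integrin and protease genes 7 were higher and 2 lower. Fn1, fibronectin, stood at 27.5, 20.5 and 26.7 CPM in #iv and at 5.16, 3.08 and 4.14 in organoid AKP (log2 fold change 2.61, SE 0.21, adjusted p = 2.85e-15), while Vim (4.54 and 11.6 CPM) was not called. The pore-forming claudin gene Cldn2 stood at 27.3, 25.1 and 19.9 CPM against 3.74, 6.58 and 5.01 (2.20, SE 0.20, adjusted p = 3.32e-13), and the collagen receptor subunit Itga2 at 7.03, 10.6 and 9.41 against 1.60, 1.40 and 1.21 (2.65, SE 0.33). The basement membrane collagen gene Col18a1 fell to 106 from 213 CPM. The desmosomal genes Dsp, Dsc2 and Dsg2 fell by 0.54, 0.48 and 0.27.

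Signalling receptors differed at a few genes. Among the G-protein-coupled receptors 32 were tested, and 6 rose while none fell by edgeR (10 higher and 2 lower at an unadjusted p below 0.05, and 9 higher by limma-voom). F2r, the thrombin receptor gene, stood at 25.9, 25.8 and 20.9 CPM against 3.56, 2.52 and 5.01 (log2 fold change 2.72, SE 0.28, adjusted p = 1.63e-09), whereas Adora1 (32 counts against 3) and Ptger4 (6.87 and 2.67 CPM) were scarce. Of 35 receptor tyrosine kinase genes, 2 were higher and 3 lower. The FGF receptor-like Fgfrl1 stood at 130, 110 and 107 CPM against 262, 291 and 235 (-1.18, SE 0.12, adjusted p = 2.06e-09) and Met at 75.9 against 105. Kit, Fgfr2, Fgfr3 and Fgfr4, which the study examined, were near or below 1 CPM and not called, and Igf1r was not called (125 and 119 CPM, adjusted p = 0.805). Of 39 ligands, Kitl (200 and 151 CPM) and, on chromosome 3, Efna1 (46 and 28 CPM) and Csf1 were higher, and Artn, Vegfa, Efna5 and Fgf13 (13.6 and 21.8 CPM) lower. Of 8 tested Igfbp and Igf2bp genes, Igfbp7 (23 counts against 2) and Igfbp4 (5.21 and 1.17 CPM) were higher. Igf2bp2 (147 and 226 CPM) was lower. None of 30 MAPK output genes was called by edgeR, limma-voom or DESeq2, with 2 higher and 3 lower at an unadjusted p below 0.05. None of 9 mitochondrially encoded genes was called by these tools, with 1 lower at an unadjusted p below 0.05.

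In the remaining lists the called members were few. Rbms3 and Ankrd1 were higher and Dock5 lower among 23 Hippo-YAP targets, and Ankrd1 (94.3 and 60.1 CPM) stood at 214 CPM in organoid AKP replicates 1 to 3, above #iv. Of 18 imprinted genes, Snrpn, Peg3, Plagl1 and Cdkn1c were higher and Ascl2 lower. Of 20 caveolin, galectin and S100 genes, 4 were higher and 3 lower: S100a11 (1620 and 1020 CPM), S100a1 and S100a6 lie on chromosome 3, Lgals4 rose to 202 from 121 CPM but was at 524 in replicates 1 to 3, and Cav1 fell to 86.1 from 129. S100a8 had no count in #iv and 41 in organoid AKP, a level at least 7.81-fold lower when the group total of #iv is set to 3 counts. Of 31 chemokines and cytokines, Mif (452 and 356 CPM), Cxcl2 and Ccl5 were higher. H2-Q10 and H2-Ab1 were higher and Isg15 lower among 34 interferon and antigen presentation genes, Acot2 was the sole call among 23 fatty acid oxidation genes, and of 30 stress genes Slc7a3 (8.40 and 1.06 CPM) and Atf5 were higher and Asns (246 and 309 CPM) and Herpud1 lower.

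Line #v, the other crypt-enriched line with library code F, was compared with #iv directly. Of the 13606 genes, 1080 (7.94%) were higher and 1056 (7.76%) lower in #iv than in #v. On chromosome 3, 198 of the 414 genes at 10 CPM or more were higher and 7 lower in #iv, with a median of 0.336. Cdkn2a was higher in #iv than in #v by 1.11 (132 and 61.7 CPM, adjusted p = 1.17e-13), and Avil by 2.0. Lower in #iv were Ascl2 by -1.21 (34.1 and 78.9 CPM), Lgals4 by -1.25 (202 and 478 CPM) and Lgr5 by -0.65 (84.5 and 132 CPM). Snrpn, Rhox5 and Crip2, which set #iv apart from organoid AKP, were not called against #v (adjusted p = 0.673, 0.922 and 0.656).

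In vivo AKP lay further away: 6043 genes (44.4%) were called between #iv and in vivo AKP replicates 4 to 6, in either direction. Igfbp4, at 5.21 CPM in #iv, stood at 759 in in vivo AKP, and Cdkn2a at 132 against 748. Gabrp, a GABA receptor subunit gene, was at 481 CPM in #iv and 4.34 in in vivo AKP. The Y-linked Ddx3y held 92.6 CPM in #iv against 0.183 in the in vivo cultures.

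Line #iii, with library code E, differed from its own organoid AKP replicates 1 to 3 at 2480 genes (18.2%). Of the genes called in #iv and those called in #iii, 559 were shared, which is 37.5% of the #iv calls and 22.5% of the #iii calls. Of these, 179 were higher in both lines and 270 lower in both, 68 were higher in #iv and lower in #iii, and 42 the reverse. The pair of comparisons shares no library. Falls of Rhox5 (-7.51 and -3.78), Gas7 (-5.03 and -4.12) and Cryba4 (-6.90 and -5.24) and rises of Pde3b (3.71 and 3.52), Khdc1a (3.78 and 2.93) and Itga2 (2.65 and 2.84) were found in both. The size of the change differed between the lines at 1428 genes (10.5%, test of the difference of the differences).

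Genes were counted as particular to #iv when they were called in the same direction against organoid AKP and against #v and when their change differed, in that direction, from the changes of #i, #ii and #iii, which share organoid AKP replicates 1 to 3 as reference. This held for 34 higher and 13 lower genes. Of the 34, 20 are on chromosome 3, among them Camk2d, Pla2g12a, Lmo4, Rbm8a, Npnt, Serp1, Wls, Fdps, Papss1 and Ahcyl1, and none of the 13 is. The rule compares changes, each from its own organoid libraries, and does not require the highest level in #iv. Lmo4 (250, 249 and 218 CPM in #iv) overlapped #i, #ii, #iii and organoid AKP replicates 1 to 3 (233, 245 and 230). Rbm8a overlapped #i and #iii, and Serp1 overlapped #ii. The other genes just named were higher in each #iv library than in any library of those groups. Away from chromosome 3, Marcks, which encodes a membrane-bound substrate of protein kinase C, stood at 56.2, 50.6 and 49.9 CPM in #iv and at 10.7, 9.51 and 10.2 in organoid AKP (log2 fold change 2.37, SE 0.14, adjusted p = 2.94e-20). It was at 22.2 CPM in #v and 10.5 in #iii, and above #iv at 86.0 CPM in in vivo AKP and 481 in control organoids. The receptor phosphatase gene Ptprr (33.8 and 9.59 CPM), Tceal8, Car9, Haghl (14.4 and 7.25 CPM) and Gabrp (481 and 292 CPM) belong to the same set. The rule used neither control nor in vivo libraries. Control replicates 4 to 6 held more Gabrp (985, 996 and 1040 CPM), Car9 (298, 277 and 275) and Ptprr (109, 106 and 94.2) than #iv. Their Haghl (16, 13.9 and 12.7) was near #iv and their Tceal8 (2.35, 3 and 3.84) below it. On chromosome 3, Cp, which encodes the copper oxidase ceruloplasmin, rose to 36.3 from 14.2 CPM, but was at 53.1 in organoid AKP replicates 1 to 3.

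The 13 genes that were lower by this rule included Flrt2, which fell by 4.49 on the log2 scale in #iv and was also called lower in #v by -3.24 and in #iii by -2.35, and Bex1. Bex1, an X-linked adaptor gene, stood at 91.6, 93.4 and 99.3 CPM in #iv and at 179, 197 and 183 in organoid AKP (log2 fold change -0.97, SE 0.09, adjusted p = 5.63e-13), and rose by 1.10 in #iii. Nebl (3.62 and 8.96 CPM), the diacylglycerol kinase gene Dgka (9.27 and 21.7 CPM), Phospho2 (16.0 and 28.3 CPM), N4bp3 (22.0 and 48.2 CPM), the ribosome recycling factor Abce1 (87.7 and 121 CPM) and Kdf1 (41.2 and 55.1 CPM) were lower as well. Against organoid AKP replicates 1 to 3, where Bex1 stood at 103 CPM, it was not called (adjusted p = 0.391). In those replicates Nebl stood at 2.72, 5.85 and 4.05 CPM, overlapping #iv, and N4bp3 at 30.3, 27.3 and 23.7, close to #iv. Flrt2, Dgka, Phospho2, Abce1 and Kdf1 were higher in each of those replicates than in any library of #iv.

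Many of the values against organoid AKP depended on which organoid AKP libraries were used. Organoid AKP replicates 4 to 6 and 1 to 3 differed from each other at 4143 of the 13606 genes tested. Of the 1491 genes called in #iv, 691 were among them. Both comparisons use replicates 4 to 6, so a gene that is high or low there can enter both, and the overlap is not independent. Of the 1491, 778 were called in the same direction against replicates 1 to 3 and 266 had the opposite sign there. Library code and organoid culture change together between these replicates and cannot be told apart.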

How the data were processed

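The authors deposited 1 table per library with raw counts per gene identifier, made from QuantSeq 3′ mRNA-seq reads (500 ng of RNA, NextSeq 500) that were aligned with STAR 2.7.0e to GRCm39, per the study's methods and the submitters' processing notes. The counting tool, its annotation and its strand setting were not given in the sources used here. Of 32285 identifiers, 611 had no name in the annotation used for symbols and coordinates (GENCODE M39) and held 6.85% of the counts. Symbols that share reads with close copies are uncertain.

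Genes that reached 1 CPM in 3 or more of the 33 libraries were tested on the deposited counts with edgeR 4.0.16 (R 4.3.3), TMM scaling, a robust quasi-likelihood fit with 11 coefficients, 1 for each line and library code letter, and Benjamini-Hochberg adjustment at 0.05. The groups came from the sample titles. The fit was tested on simulated data. Alternatives used limma 3.58.1, DESeq2 1.42.0, other scalings, filters, libraries and references. Counting intervals and floors cover counting error only.

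The members, lists and tests were chosen with earlier results of these data known. Genes were named as the 10 largest called changes in each direction with at least 5 CPM and no overlap, up to 3 members of each list with the smallest p, the genes named by the study, and up to 8 genes in each direction particular to #iv. Other called list members, genes on chromosome 3 and squamous genes were named after their values were seen, as were the chromosome grouping and the alternative without chromosome 3. A few genes that these rules name are not reported here.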

Additional observations from a re-analysis of the deposited data

Results flagged for a closer look

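The change in #iv against organoid AKP replicates 4 to 6 and the change in #iii against organoid AKP replicates 1 to 3 were compared in 1 test, and they differed at 1428 genes. Of the genes named in the text, 69 were among them. Those below were called in both lines with opposite signs, and the value given is the change in #iv minus the change in #iii on the log2 scale.

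Higher in #iv and lower in #iii were Mmp7 (difference 2.56, SE 0.29), Cd24a (1.48, SE 0.17), Cldn2 (3.04, SE 0.30), Car9 (2.09, SE 0.32), Haghl (2.07, SE 0.41), Gabrp (1.88, SE 0.30), Mvd (1.0, SE 0.19) and, on chromosome 3, Cp (2.53, SE 0.22), Pmvk (1.30, SE 0.19) and Muc1 (3.60, SE 0.84). Spink4 differed by 5.46 (SE 1.14) on few counts.

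Lower in #iv and higher in #iii were Bex1 (-2.07, SE 0.13) and the p53 target Phlda3 (-2.61, SE 0.34). For Mmp7, Cldn2, Cp and Bex1 both organoid references entered the difference: Mmp7 stood at 14.6 CPM in organoid AKP replicates 1 to 3, Cldn2 at 14.7, Cp at 53.1 and Bex1 at 103. How far the references set these values was not tested.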

How the results depend on the processing

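The counts of 758 higher and 733 lower genes stayed within 1.5 times under limma-voom, DESeq2 (659 lower and 728 higher genes, with 264 adjusted p-values not given), RLE and upper quartile scaling, no filter and the letter F libraries alone. With only the 6 libraries compared, 1185 genes were higher. With organoid AKP replicates 1 to 3 as reference 2049 were higher and 2151 lower, and with all 6 organoid AKP libraries 347 and 320. Leaving out 1 library gave 529 to 635 higher and 482 to 638 lower genes, with 529 higher without organoid AKP replicate 4 and 482 lower without #iv replicate 1. The chromosome 3 median lay between 0.263, with organoid AKP replicates 1 to 3 as reference, and 0.295, without #iv replicate 3. Leaving out 1 library gave 1410 to 1968 calls against #v (1410 without #v replicate 3), 5310 to 5678 against in vivo AKP, 1858 to 2264 in #iii, 1148 to 1425 for the difference of #iv and #iii, and 29 to 50 particular genes, with 29 without #iv replicate 1 and 31 without #iv replicate 2. The cause of these shifts was not tested, beyond the fewer samples.

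Of 128 called named genes, 65 kept their call and direction under all alternatives and 21 lost it when 1 library was left out, among them Mki67, Ascl2, Phlda3, Abce1, Kdf1, Gabrp, Cdkn1c, Btg2, Herpud1, Isg15, Cxcl2, Muc1, Spink4, Vegfa, Peg3, Gpx2, Krt7, Dock5, Pmaip1, Slc30a4 and Fgf13. No called gene reversed outside the settings that change the organoid reference. With replicates 1 to 3 as reference the log2 fold changes reversed for Dapl1 (0.73), Ankrd1 (-1.18), Dock5 (0.22), Spink4 (-1.22), Rrm1 (-0.0908), Phlda3 (0.88), Artn (0.41), Acot2 (-0.16), Vegfa (1.16), Bmp2 (0.23), Id2 (0.19), Notch3 (0.0083), Lgals4 (-1.38), Cav1 (0.57), Ddx3y (-0.012), Cd44 (0.65), Fgfr2 (-2.29), Muc2 (-2.43), Iqgap2 (-0.43) and Cp (-0.55), and with all 6 organoid AKP libraries for Ankrd1 (-0.52), Vegfa (0.22) and Lgals4 (-0.67). No paired analysis was possible because #iv shares no replicate number with organoid AKP replicates 4 to 6 or in vivo AKP replicates 4 to 6. Lines #iv and #v share numbers, as do #i, #ii, #iii and organoid AKP replicates 1 to 3. A fit with the replicate number as a block, added after seeing the data, gave 2136 calls between #iv and #v (2136 without the block), 2523 in #iii (2480), 1500 for the difference of #iv and #iii (1428) and 49 particular genes (47). Deviations of same-numbered libraries from their group means correlated at -0.0163, 0.0877 and 0.049 between #iv and #v. Between #iii and organoid AKP they correlated at 0.0732, 0.216 and 0.156. The values were 0.347, 0.193 and 0.175 for #ii and organoid AKP, and -0.211, 0.0268 and -0.0834 for #i. Libraries of #ii and #iii each correlated best with the organoid AKP library of their own number, and those of #i did not. The reported fit treated all libraries as unpaired, and what the shared numbers stand for was not tested. Line #iv is 1 line with 3 libraries, its libraries held fewer counts than those of organoid AKP, and genes near 1 CPM were measured with few counts.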
